A study of Mus musculus with 18 samples.

Results

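Expression of 9 genes of clotting and clot removal in vessels, Plat, Plau, Plaur, F3, Thbd, Procr, Tfpi, Vwf, and Thbs1, was followed in mouse LV and RV after cold storage and reperfusion. The genes were chosen by name and are 9 of the 34989 genes with transcripts in the data. All 9 passed the filter on low counts in each ventricle.

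Hearts came from wild-type mice of the strain given as C57B/L6, aged 12 weeks by the labels, with no transgene in any group. They were flushed with HTK (histidine-tryptophan-ketoglutarate preservation solution), kept ice-cold in HTK for 0, 4, or 8 h, and then perfused ex vivo with Krebs buffer for 1 h, so that the 0 h hearts were also flushed and perfused. The study's methods state that the mice received heparin, an anticoagulant, in all groups. From both ventricles RNA libraries were made, 18 in all and 3 for each of the 6 groups, with between 22552581 and 46236771 estimated counts per library. Nothing in the sources used here says that a replicate number names 1 heart.

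Clotting starts when tissue factor, the product of F3, meets blood and activates factor VII, and tissue factor pathway inhibitor (Tfpi) stops that step. Thrombin bound to thrombomodulin (Thbd) on endothelium activates protein C, which the endothelial protein C receptor (Procr) presents, and activated protein C inactivates clotting cofactors. Fibrin is removed by plasmin, which tissue-type and urokinase-type plasminogen activators (Plat and Plau) form from plasminogen, the latter on its receptor at the cell surface (Plaur). Von Willebrand factor (Vwf), stored in endothelium and platelets, tethers platelets to the vessel wall, and thrombospondin 1 (Thbs1) is a matrix and platelet protein that binds CD47 and CD36 and activates TGF-beta.

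Some values of the whole series touch the results. The libraries with number 1 at 0 h held more Plau, Plaur, Procr, and Thbs1 than the other 0 h libraries of either ventricle. Genes of the mitochondrial genome took 22.72% to 34.42% of the counts, with every 8 h library at or above 31.98%. The RV library with number 3 at 0 h, at 32.61%, lay within the 8 h range. The 6 cardiomyocyte markers summed to 46300 to 56600 CPM (counts scaled by library size with TMM factors) in LV at 0 h and to 35160 to 40240 CPM at 8 h, and to 49570 to 57590 and 24930 to 47180 CPM in RV. In each of the 6 groups 1 library had the Y-linked gene Ddx3y under 5 CPM. The 9 endothelial markers were all detected and summed to between 524.4 and 1098 CPM over the 18 libraries. In bulk tissue, fewer cells of a type and less RNA per cell cannot be told apart.

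The first question was which of these genes changed with storage time in each ventricle. After 8 h, transcripts of the plasminogen activator Plat, the protein C receptor Procr, and Thbs1 were higher than at 0 h in both ventricles, and those of the urokinase receptor Plaur and of thrombomodulin were called higher in RV. F3, Tfpi, Vwf, and Plau were not called in either ventricle in these fits of 9 libraries. A gene was called when its Benjamini-Hochberg adjusted p in edgeR's quasi-likelihood test was under 0.1 and its fold change over 1.5. In LV 3 of the 9 were called higher after 4 h, where 2.40% of the 14564 genes tested were called higher, and the same 3 after 8 h, where 5.46% were. In RV 4 of the 9 were called higher after 4 h (6.17% of 14622 genes) and 5 after 8 h (13%). None of the 9 was called lower.

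**Figure D1:**
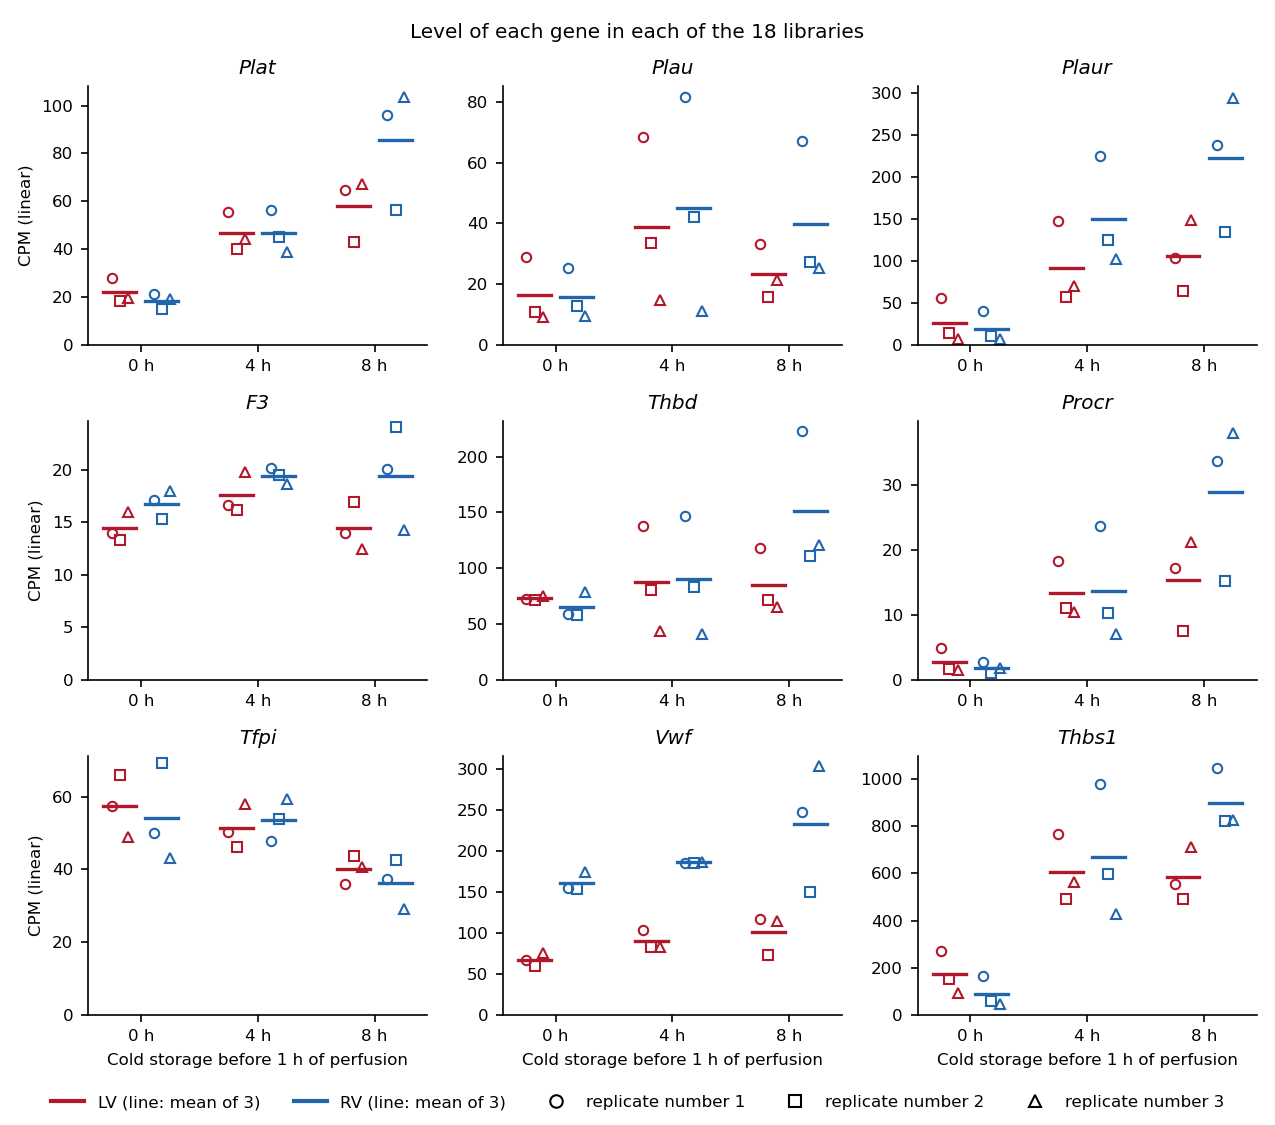
Level of each of the 9 genes in CPM on a linear axis (vertical, from 0) by hours of cold storage (horizontal), with 1 symbol per library for its replicate number and a line for the mean of 3 libraries, LV in red and RV in blue. In Plat, Plaur, Procr, and Thbs1 all 6 stored libraries of a ventricle lay above its 3 libraries at 0 h, and in Vwf every RV library lay above every LV library. The shares of all genes that did so were not counted, so this describes the plot only.

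The level of Plat (ENSMUSG00000031538.6, GRCm38 chromosome 8, 22757727 to 22782844, plus strand), the activator that works mainly on fibrin, was 27.7, 18.1, and 19.6 CPM in LV at 0 h, 55.7, 40.0, and 44.2 CPM at 4 h, and 64.7, 42.9, and 67.0 CPM at 8 h. The RV libraries had 21.1, 14.9, and 18.9 CPM at 0 h, 56.4, 45.0, and 38.9 CPM at 4 h, and 96.1, 56.5, and 103.8 CPM at 8 h. No stored library overlapped the 0 h libraries of its ventricle, and at 8 h the library with number 2 was the lowest in LV and in RV. Against 0 h the log2 fold change was 1.10 ± 0.22 (SE) after 4 h and 1.42 ± 0.23 after 8 h in LV, with edgeR adjusted p of 0.0575 and 0.0171. The RV values were 1.37 ± 0.26 and 2.24 ± 0.27, with edgeR adjusted p of 0.0201 and 0.00176.

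Plau (ENSMUSG00000021822.3, chromosome 14, 20836660 to 20843385, plus strand) encodes the urokinase-type activator. It was at 29.0, 10.7, and 9.18 CPM in LV at 0 h, 68.5, 33.4, and 14.8 CPM at 4 h, and 33.3, 15.8, and 21.2 CPM at 8 h. RV libraries had 25.4, 12.6, and 9.37 CPM at 0 h, 81.8, 42.2, and 11.2 CPM at 4 h, and 67.2, 27.4, and 25.1 CPM at 8 h. The library with number 1 was the highest in each of the 6 groups, and the stored libraries overlapped those at 0 h in both ventricles. In LV the log2 fold change was 1.25 ± 0.59 after 4 h and 0.52 ± 0.59 after 8 h, and in RV 1.52 ± 0.67 and 1.33 ± 0.66, with edgeR adjusted p of 0.347, 0.61, 0.224, and 0.201. In RV the deviations of same-numbered libraries correlated weakly across genes. The correlation was 0.111 to 0.269 between 0 h and 4 h and 0.165 to 0.276 between 0 h and 8 h. The fit with the replicate number as a block called Plau higher in RV after both times. Its log2 fold changes were 1.33 ± 0.33 and 1.35 ± 0.33, with edgeR adjusted p of 0.044 and 0.0257. In LV, where these correlations were 0.04 to 0.261 and -0.019 to 0.105, the block called Plau higher after 4 h. DESeq2 without the block called Plau higher in RV after 4 h (adjusted p of 0.0866). Without the LV library with number 1 at 0 h, the LV values were 1.97 and 1.24 and were not called. With the block, 5 of the 9 were called higher in RV after 4 h (8.45% of all genes) and 6 after 8 h (15.5%).

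Plaur (ENSMUSG00000046223.10, chromosome 7, 24462484 to 24475968, plus strand), the receptor that holds urokinase at the cell surface, was at 55.9, 14.3, and 7.03 CPM in LV at 0 h, 146.7, 56.3, and 69.6 CPM at 4 h, and 103.4, 64.0, and 148.6 CPM at 8 h. Plaur in RV was at 40.2, 10.6, and 6.33 CPM at 0 h, 224, 124, and 101.3 CPM at 4 h, and 237.9, 134.2, and 293.6 CPM at 8 h. All stored libraries exceeded the 0 h libraries of their ventricle, in LV by as little as 56.3 against 55.9 CPM. A log2 fold change of 2.99 ± 0.67 after 4 h and 3.56 ± 0.69 after 8 h in RV was called, with edgeR adjusted p of 0.0354 and 0.0118. In LV, 1.82 ± 0.71 and 2.03 ± 0.71 were not called, with edgeR adjusted p of 0.261 and 0.138. DESeq2 called Plaur higher in LV after 8 h (adjusted p of 0.0912), as did the fit with the replicate number as a block. Without the LV library with number 1 at 0 h, the values were 3.09 and 3.31 and were called, with edgeR adjusted p of 0.0433 and 0.0316. Without the RV library with number 1 at 0 h, the RV values were 4.165 and 4.73, also called. In each ventricle the library with number 1 held the most Plaur at 0 h, so leaving it out raises the fold change. Among the 9 fits without 1 RV library, 4.165 and 4.73 were the highest RV values, and the lowest were 2.57 and 3.14.

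**Figure D2:**
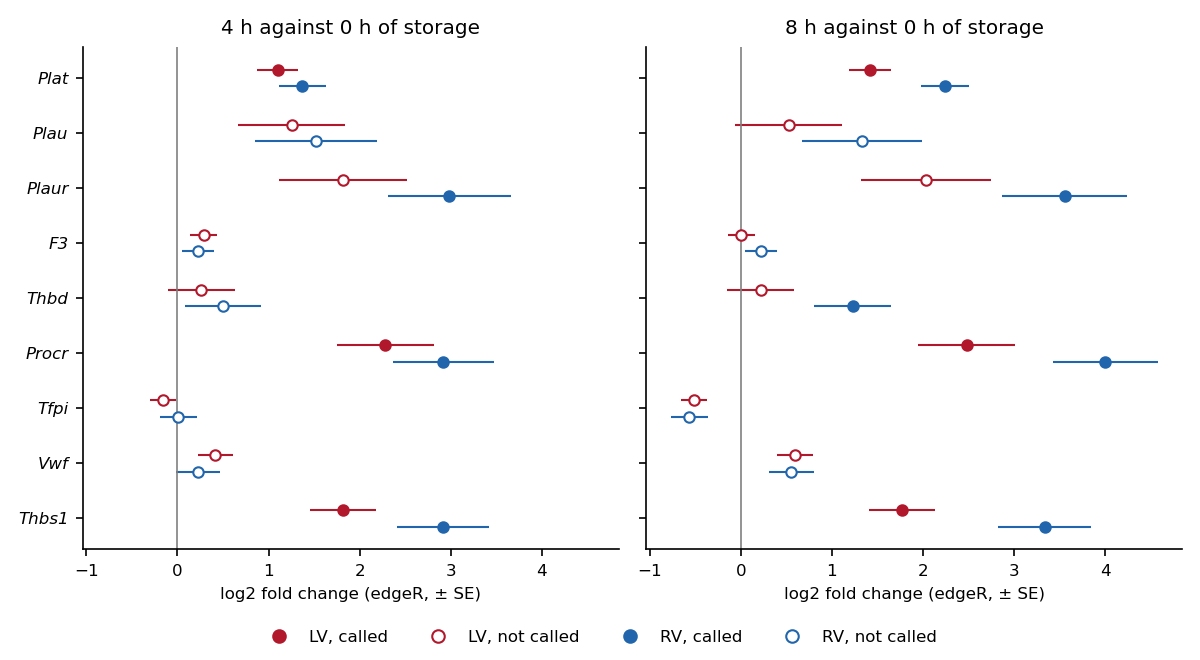
The log2 fold change of each gene (horizontal) after 4 h and after 8 h of storage against 0 h, with the SE of edgeR's fit as bars, LV in red and RV in blue, and filled symbols for called changes. The RV value exceeded the LV value at 8 h in Plat, Plau, Plaur, F3, Thbd, Procr, and Thbs1, while Tfpi lay below 0 at 8 h in both ventricles (-0.51 and -0.56).

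F3 (ENSMUSG00000028128.13, chromosome 3, 121723537 to 121735048, plus strand), which encodes the cellular starter of clotting, stayed within a narrow range. It was at 14, 13.3, and 15.9 CPM in LV at 0 h, 16.7, 16.2, and 19.8 CPM at 4 h, and 13.97, 16.9, and 12.4 CPM at 8 h. RV had 17.1, 15.3, and 17.9 CPM at 0 h, 20.2, 19.5, and 18.6 CPM at 4 h, and 20.02, 24.05, and 14.3 CPM at 8 h. The groups did not overlap at 4 h and did at 8 h in each ventricle. The log2 fold change after 8 h was 0.01 ± 0.15 in LV and 0.22 ± 0.18 in RV, with edgeR adjusted p of 0.98 and 0.397, and after 4 h it was 0.29 ± 0.15 and 0.23 ± 0.18, with edgeR adjusted p of 0.389 and 0.557.

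Tfpi (ENSMUSG00000027082.15, chromosome 2, 84432855 to 84476775, minus strand), the inhibitor of the step that tissue factor starts, was the 1 gene of the 9 with a negative log2 fold change after 8 h, in LV and in RV. It was at 57.4, 65.8, and 48.8 CPM in LV at 0 h, 50.2, 46.2, and 57.9 CPM at 4 h, and 36.0, 43.6, and 40.6 CPM at 8 h. The RV levels were 49.9, 69.1, and 43.2 CPM at 0 h, 47.9, 53.9, and 59.3 CPM at 4 h, and 37.4, 42.6, and 29.1 CPM at 8 h. All 8 h libraries lay below the 0 h libraries of their ventricle, in RV by 42.6 against 43.2 CPM at the nearest. The share of all genes separated downward in this way was not counted. The log2 fold change after 8 h was -0.51 ± 0.14 in LV, with an edgeR adjusted p of 0.0847, and -0.56 ± 0.21 in RV, with an edgeR adjusted p of 0.101 (0.0593 with the block). The fold, 1.43 in LV and 1.48 in RV, was under the threshold of 1.5, so Tfpi was not called. The ratio of F3 to Tfpi in TPM (abundance scaled by transcript length within a library) had a mean log2 of -1.49 ± 0.41 (SD, n = 3) at 0 h in LV against -1.14 ± 0.35 at 8 h, and of -1.16 ± 0.44 against -0.45 ± 0.19 in RV. In RV all 3 ratios at 8 h, from -0.66 to -0.30, exceeded the highest at 0 h, -0.82, and in LV the groups overlapped. This ratio was not tested.

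Thbd (ENSMUSG00000074743.4, chromosome 2, 148404466 to 148408188, minus strand), the thrombin receptor that turns thrombin toward protein C, had libraries far apart from each other in the stored groups. It was at 72.8, 71.0, and 75.3 CPM in LV at 0 h, 137.8, 80.3, and 44.0 CPM at 4 h, and 118.3, 71.1, and 65.2 CPM at 8 h. Thbd in RV was at 58.4, 57.8, and 78.3 CPM at 0 h, 147, 83.4, and 41.2 CPM at 4 h, and 222.9, 110.9, and 120.7 CPM at 8 h. At 4 h the library with number 3 was below all 0 h libraries of its ventricle and that with number 1 far above them, while at 8 h all 3 RV libraries exceeded those at 0 h. The log2 fold change after 8 h was 0.22 ± 0.37 in LV and 1.23 ± 0.42 in RV, with edgeR adjusted p of 0.74 and 0.087. The call in RV was lost in 6 of the 9 fits that left out 1 RV library, with edgeR adjusted p up to 0.24 and a log2 fold change of 0.87 to 1.41.

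Procr (ENSMUSG00000027611.12, chromosome 2, 155751117 to 155755471, plus strand), the endothelial receptor of protein C, had the lowest mean TPM of the 9 genes at 0 h, 3.04 in LV and 2.34 in RV. It was at 4.94, 1.62, and 1.49 CPM in LV at 0 h, 18.3, 11.1, and 10.5 CPM at 4 h, and 17.2, 7.49, and 21.2 CPM at 8 h. Procr in RV was at 2.72, 1.02, and 1.73 CPM at 0 h, 23.7, 10.2, and 7.10 CPM at 4 h, and 33.8, 15.2, and 38.1 CPM at 8 h. No stored library overlapped the 0 h libraries of its ventricle. After 4 h the log2 fold change was 2.28 ± 0.53 in LV and after 8 h 2.48 ± 0.53, with edgeR adjusted p of 0.0813 and 0.0416, and in RV the values were 2.92 ± 0.55 and 4.00 ± 0.58, with edgeR adjusted p of 0.0202 and 0.00375. Without the library with number 1 at 0 h, which held the most Procr in each ventricle, the LV values were 3.09 and 3.29. The RV value after 8 h was then 4.42. These were the highest of the fits without 1 library, where the lowest were 1.98 and 2.16 in LV and 3.71 in RV. Without the RV library with number 1 at 4 h, the RV value after 4 h was 2.25, the lowest. The highest was 3.335. Of the TPM of Procr, the coding transcript Procr-201 held a median of 35.9% over the 18 libraries, the retained-intron transcript Procr-204 held 31.3%, and the processed transcript Procr-203 held 28.2%. On coding transcripts alone, the log2 fold changes after 8 h were 2.54 ± 0.48 in LV and 4.38 ± 0.75 in RV, with edgeR adjusted p of 0.0295 and 0.00764.

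Vwf (ENSMUSG00000001930.17, chromosome 6, 125546774 to 125686679, plus strand), the carrier of factor VIII that tethers platelets, was at 66.3, 60.0, and 75.4 CPM in LV at 0 h, 103.8, 83.0, and 82.1 CPM at 4 h, and 116.8, 72.8, and 114.7 CPM at 8 h. Vwf in RV was at 154.8, 153, and 174.3 CPM at 0 h, 185.4, 185, and 186.7 CPM at 4 h, and 247, 149.2, and 303.2 CPM at 8 h. The libraries at 4 h lay above those at 0 h in both ventricles, and the 8 h library with number 2 was within the 0 h range in LV and below it in RV. After 8 h the log2 fold change was 0.60 ± 0.19 in LV and 0.56 ± 0.25 in RV, with edgeR adjusted p of 0.12 and 0.161. DESeq2 called Vwf higher in LV after 8 h. The coding transcript Vwf-203 held a median of 60.9% of the TPM of Vwf and the transcript Vwf-210, annotated as subject to nonsense-mediated decay, 30.6%.

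Thbs1 (ENSMUSG00000040152.8, chromosome 2, 118111876 to 118127133, plus strand), the matrix and platelet protein, rose in both ventricles after 4 h and 8 h. It was at 272, 151.9, and 93.2 CPM in LV at 0 h, 766.8, 491.3, and 563.1 CPM at 4 h, and 554.6, 491.3, and 713.7 CPM at 8 h. Thbs1 in RV was at 163.6, 59.4, and 45.4 CPM at 0 h, 981.9, 598.5, and 426.2 CPM at 4 h, and 1048, 822.5, and 826 CPM at 8 h. No stored library overlapped the 0 h libraries of its ventricle. It rose by a log2 of 1.82 ± 0.36 after 4 h and 1.77 ± 0.36 after 8 h in LV, with edgeR adjusted p of 0.0508 and 0.0359, and 2.91 ± 0.50 and 3.34 ± 0.51 in RV, with edgeR adjusted p of 0.0144 and 0.00492. Without the RV library with number 1 at 0 h, which held the most Thbs1 of that group, the RV values were 3.695 and 4.11. These were the highest among the 9 fits without 1 RV library, and the lowest were 2.53 and 3.01.

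By separation alone, 6 of the 9 genes had all 3 LV libraries at 4 h above all 3 at 0 h (12.9% of the genes tested) and 4 had so at 8 h (15.5%). In RV these were 6 of 9 at 4 h (15.1%) and 5 of 9 at 8 h (18.5%). The calls in LV after 4 h depended on single libraries. All 3 were lost without the 0 h library with number 2 or 3 or the 4 h library with number 1 or 3, and that of Procr also without the 4 h library with number 2 or the 8 h library with number 1, with edgeR adjusted p of up to 0.27 for Plat, 0.317 for Procr, and 0.261 for Thbs1. After 8 h Plat was called in LV in all 9 such fits, Thbs1 was lost without the 0 h library with number 2 (edgeR adjusted p of 0.176), and Procr without the 0 h library with number 2 or 3 or the 8 h library with number 3 (up to 0.185). In RV after 4 h, Thbs1 alone was called without the 0 h library with number 2, Plat and Thbs1 without that with number 3, and Plaur was lost without the 4 h library with number 1 (edgeR adjusted p of 0.104). In RV after 8 h, the calls of Plat, Plaur, Procr, and Thbs1 were kept in all 9 fits without 1 library.

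Between 4 h and 8 h of storage edgeR called none of the 9 genes in either ventricle, and 0% of all genes in LV and in RV. With the block the share of all genes called was 0.00687% in LV and 0% in RV, again without any of the 9. At an unadjusted p under 0.05 edgeR had 1 in LV (Tfpi) and 2 in RV (Tfpi and Plat) without the block, and 2 in LV (Tfpi and Plat) and 3 in RV (Tfpi, Plat, and Procr) with it, and DESeq2 called 0 of the 9 in each ventricle. In RV the log2 fold change from 4 h to 8 h was 0.87 ± 0.26 for Plat, 1.09 ± 0.50 for Procr, and -0.57 ± 0.21 for Tfpi, each with an edgeR adjusted p of 0.599.

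For Plaur, Procr, F3, and Tfpi a RefSeq table (GRCm38.p6) gave the sequence before the start site, 4 of the 9 genes, with 1 window each but 2 for Tfpi. They are shown because only these genes of the 9 had a window there. Among them Procr, and Plaur in RV, were called with storage, and F3 and Tfpi were not. Each run is read 5′ to 3′ on the strand of the gene from 250 bases before the RefSeq start and ends before the gene start given above, and capitals mark matches on either strand to the motifs searched.
Plaur, chr7:24462233-24462482, plus strand: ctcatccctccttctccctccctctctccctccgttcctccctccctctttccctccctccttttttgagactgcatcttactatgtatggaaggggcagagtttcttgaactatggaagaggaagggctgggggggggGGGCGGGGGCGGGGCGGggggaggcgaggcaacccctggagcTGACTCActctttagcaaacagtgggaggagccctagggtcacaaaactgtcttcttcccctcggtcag
Procr, chr2:155750967-155751116, plus strand: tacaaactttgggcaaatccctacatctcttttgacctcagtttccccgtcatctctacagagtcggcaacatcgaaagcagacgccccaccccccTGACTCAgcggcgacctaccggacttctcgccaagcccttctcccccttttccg
F3, chr3:121723287-121723536, plus strand: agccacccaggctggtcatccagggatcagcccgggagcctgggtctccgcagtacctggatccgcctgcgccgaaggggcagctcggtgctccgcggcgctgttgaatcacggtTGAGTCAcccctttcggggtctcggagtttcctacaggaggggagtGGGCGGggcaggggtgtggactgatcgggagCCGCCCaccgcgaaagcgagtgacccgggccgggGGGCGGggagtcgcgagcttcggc
Tfpi, chr2:84476776-84477009, minus strand: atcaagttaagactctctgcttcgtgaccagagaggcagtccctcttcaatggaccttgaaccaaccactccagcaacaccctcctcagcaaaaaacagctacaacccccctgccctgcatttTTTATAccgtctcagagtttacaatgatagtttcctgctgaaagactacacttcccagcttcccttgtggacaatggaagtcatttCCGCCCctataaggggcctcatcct

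The motifs searched were AP-1 (TGAGTCA), SP1 (GGGCGG), the TATA box (TATAAA), CRE (TGACGTCA), an E-box (CACGTG), and NF-kB (GGGRNWYYCC). In the last, R stands for A or G, W for A or T, Y for C or T, and N for any base. The motifs were chosen with the results known and searched on both strands of the 250 bases before each RefSeq start. The AP-1 letters occurred in the windows of Plaur (first base 69 bases before the RefSeq start, at -69), Procr (-154), and F3 (-135), and in 4.46% of the 32851 windows of this length in the table. The SP1 letters occurred 3 times in the window of Plaur, where the copies lie next to or over each other, 3 times in that of F3, and in that of Tfpi, and in 32.7% of all windows. The TATA letters occurred in the Tfpi window (-127) and in 12.4% of all windows. No match to the letters of NF-kB (3.90% of all windows), CRE (1.55%), or the E-box (6.02%) was found in these 4 windows. A site with other letters would not be found by this search, so it does not show that such sites are absent. A second RefSeq window of Tfpi, which lies inside the gene, is not printed and held the SP1 letters at -159. F3, which was not called with storage, held the AP-1 letters as Plaur and Procr did. The matches are letters in a window, and binding was not measured.

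The second question was whether LV and RV differed in these genes. Same-numbered libraries of LV and RV deviated from their group means together, with correlations across genes of at least 0.325. The block here was a term for each same-numbered pair of LV and RV libraries within a storage time. Values with this block are given beside those without it. Pairs with the same sign were not counted over all genes, so such statements below only describe the genes named. Both fits called Vwf lower in LV at 0 h. With the block, Vwf was lower in LV at all 3 times, Plaur also at 4 h (1.09% of all genes called lower), and 6 of the 9 genes at 8 h (6.53%), while Thbs1 was higher in LV at 0 h (0.835% called higher).

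At 0 h Vwf ranged from 60.0 to 75.4 CPM in LV against 153 to 174.3 CPM in RV, and in CPM no LV library reached an RV library at any time. In TPM the ventricles overlapped at 8 h, where number 3 in LV had 22.01 and number 2 in RV had 21.14. The log2 difference, LV minus RV, was -1.26 ± 0.23 at 0 h, -1.05 ± 0.22 at 4 h, and -1.201 ± 0.22 at 8 h without the block, with edgeR adjusted p of 0.0657, 0.458, and 0.115. With the block it was -1.26 ± 0.10, -1.06 ± 0.09, and -1.17 ± 0.09, with edgeR adjusted p of 0.000141, 0.00196, and 0.000146. It was negative in all 9 same-numbered pairs, from -1.40 to -0.84. At 0 h, 0.0861% of the 15093 genes tested were called lower in LV without the block and 1.01% with it. The call without the block was lost in 7 of 18 fits that left out 1 library, with an edgeR adjusted p of up to 0.361. The change of Vwf with storage did not pass the test of a difference between ventricles (0.09 ± 0.13 after 8 h with the block, edgeR adjusted p of 0.733).

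**Figure D3:**
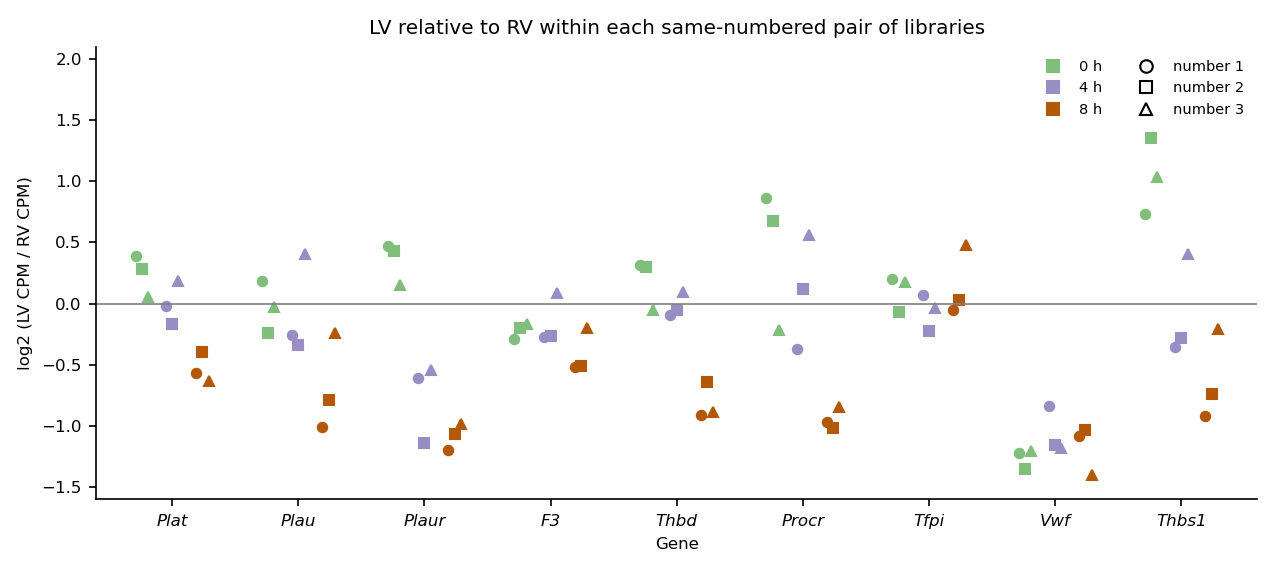
The log2 ratio of LV to RV CPM (vertical) in each same-numbered pair of libraries for each gene (horizontal), colored by hours of storage, with a symbol for the replicate number. Vwf lay below 0 in all 9 pairs, and Plat, Plau, Plaur, F3, Thbd, Procr, and Thbs1 lay below 0 in all 3 pairs at 8 h. The share of all genes that did so was not counted, so this describes the plot only.

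In all 3 pairs at 0 h Thbs1 was at a higher level in LV (log2 ratios of 0.73 to 1.35), and in all 3 at 8 h at a lower level (-0.92 to -0.21). The difference at 0 h was 0.95 ± 0.45 without the block, with an edgeR adjusted p of 1.0, and 1.04 ± 0.18 with it, with an edgeR adjusted p of 0.0132, where 0.835% of genes were called higher in LV. Without the pair with number 2 at 0 h the adjusted p with the block was 0.126. At 8 h it was -0.63 ± 0.17 with the block, with an edgeR adjusted p of 0.0242, and the call was lost without the 8 h pair with number 1 or 2.

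At 4 h edgeR without the block called none of the 9 genes lower in LV (0.0133% of all genes), 1 of the 9 (Vwf) had an unadjusted p under 0.05, and DESeq2 called Vwf. With the block Plaur and Vwf were called lower in LV (1.09% of all genes). Plaur was lower in LV in all 3 pairs, by log2 ratios of -1.14 to -0.54, and the fitted difference was -0.76 ± 0.11 with an edgeR adjusted p of 0.0082, with the call lost without the 4 h pair with number 2. Without the block it was -0.72 ± 0.72.

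At 8 h edgeR without the block called none of the 9 lower in LV (0.0199% of all genes), 3 (Vwf, F3, and Plat) had an unadjusted p under 0.05, and DESeq2 called Vwf. With the block Plau, Plaur, Procr, Thbd, Thbs1, and Vwf were called lower in LV, where 6.53% of all genes were. The difference was -0.70 ± 0.16 for Plau, -1.09 ± 0.11 for Plaur, -0.94 ± 0.16 for Procr, and -0.82 ± 0.09 for Thbd, with edgeR adjusted p of 0.00911, 0.000269, 0.00208, and 0.000302. The pairs of Plaur lay between -1.202 and -0.98, those of Procr between -1.02 and -0.84, and those of Thbd between -0.91 and -0.64. The difference of Plat was -0.54 ± 0.08 and that of F3 -0.42 ± 0.09, with edgeR adjusted p of 0.00157 and 0.00895, under the fold threshold. Tfpi differed by 0.15 ± 0.10, with an edgeR adjusted p of 0.319. Without the 8 h pair with number 1 the difference of Plau was -0.51, under the fold threshold.

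The change from 0 h to storage was then compared between the ventricles. Without the block edgeR called none of the 9 genes and 0% of all genes at either time, DESeq2 called 0 of the 9, and at an unadjusted p under 0.05 were 0 of the 9 for the change to 4 h and 2 (Plat and Thbs1) for that to 8 h. With the block, the change to 4 h was larger in RV for Plaur (log2 difference LV minus RV of -1.13 ± 0.16, edgeR adjusted p of 0.0454), where 0.265% of all genes were called this way. This call was lost without the 0 h pair with number 1 or 2, with an adjusted p of up to 0.279. For the change to 8 h, Plat, Plau, Plaur, Procr, Thbd, and Thbs1 were called (4.72% of all genes), all with the higher log2 fold change in RV.

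The difference in the change to 8 h was -0.78 ± 0.12 for Plat, -1.46 ± 0.16 for Plaur, -1.001 ± 0.13 for Thbd, and -1.67 ± 0.25 for Thbs1 with the block, with edgeR adjusted p of 0.00412, 0.00131, 0.00146, and 0.00294. These 4 were called in all 9 fits that left out 1 same-numbered pair. For Procr it was -1.47 ± 0.28 (edgeR adjusted p of 0.0115), not called without the 0 h pair with number 1 (adjusted p of 0.136), and for Plau -0.69 ± 0.23 (edgeR adjusted p of 0.0946), called in 2 of the 9 fits. On coding transcripts alone with the block, Plau was not called (edgeR adjusted p of 0.108) and the other 5 were. For Plat, Plaur, and Thbs1 the lower level of RV in all 3 pairs at 0 h and its higher level in all 3 at 8 h both enter the difference in the change. At 0 h RV was the higher in 1 pair for Procr and for Thbd and in 2 pairs for Plau.

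Per length, in TPM, the order of the 9 genes changed with storage. In LV at 0 h the mean was highest for Thbs1 (38.9 TPM), followed by Tfpi (31.2), Plaur (28.4), and Thbd (25.3), each overlapping the next of these 4 in range, and lowest for Procr (3.04). In RV at 0 h Vwf was first (32.7 TPM), before Tfpi (29.9), Thbd (22.2), Plaur (21.7), and Thbs1 (20.6), each overlapping its neighbour in range. At 8 h Thbs1 (105.1 TPM) and Plaur (91.1) in LV and Plaur (179) and Thbs1 (153.7) in RV were the highest, with ranges that overlapped each other and no other gene. F3 was then the lowest in both ventricles, at 8.78 TPM in LV and 12.0 in RV.

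The libraries in which these genes were high can be compared by correlation of log2 CPM over the 18 libraries, which share their groups, so that genes moving with storage correlate. Plat, Plaur, Procr, and Thbs1 had a Pearson r with each other of 0.918 to 0.983, and F3 had an r of at most 0.366 with any of the 9. Thbd had its highest r with Plau (0.749). Among 9971 genes with a mean of at least 5 CPM, the most alike were Enc1 (0.989), Il4ra (0.986), and Irf8 (0.984) for Plat, and Sphk1 (0.989), Plat (0.983), and Gm13889 (0.982) for Procr. For Plaur they were Gadd45b (0.988), Rnd1 (0.987), and Zc3h12a (0.987), for Thbs1 Myc (0.980), Ccl7 (0.976), and Adamts4 (0.974), and for Plau Fam129b (0.948), Cldn5 (0.935), and Il1b (0.926). For Thbd they were Stx12 (0.930), Rgcc (0.914), and Acvrl1 (0.909), for Vwf Igf2 (0.967), Cdh11 (0.941), and Plvap (0.912), for Tfpi Abhd18 (0.955), Mylk4 (0.945), and Ttc12 (0.934), and for F3 Tmem100 (0.764), Vopp1 (0.764), and Ptp4a2 (0.754).

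Of 50 other genes of the clotting system listed by role, 32 passed the filter in LV and 28 in RV. After 4 h 3 were called higher in LV (Comp, Serpinb2, and Tfpi2) and 2 in RV (Serpinb2 and Tfpi2), and after 8 h 7 in LV and 10 in RV, and none was called lower. Of all genes tested 2.40% and 5.46% were called higher in LV after 4 h and 8 h, and 6.17% and 13% in RV. With the block 6 were called higher in RV after 4 h (Anxa2, Anxa5, Pros1, and S100a10 in addition), where 8.45% of all genes were, and the same 10 after 8 h. The median log2 fold change over the tested genes after 8 h was 0.38 in LV and 0.67 in RV, against -0.02 and -0.07 over all genes tested. After 8 h the coagulation factors had 0 of 6 called in LV and 1 of 3 in RV, the anticoagulants 2 of 4 and 3 of 4, the fibrinolysis genes 2 of 6 and 3 of 6, the thrombin and protease receptors 1 of 3 and 1 of 2, and the genes of platelet adhesion and its limits 2 of 13 in each. F13b, Fgb, and Kng1, which encode clotting proteins made in the liver, were at 0 in all 18 libraries. So were the protein C gene Proc, Serpind1, and Cpb2, and Fga was at 0 in every group but RV at 8 h. Others such as F10 were above 0 in each library.

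**Figure D4:**
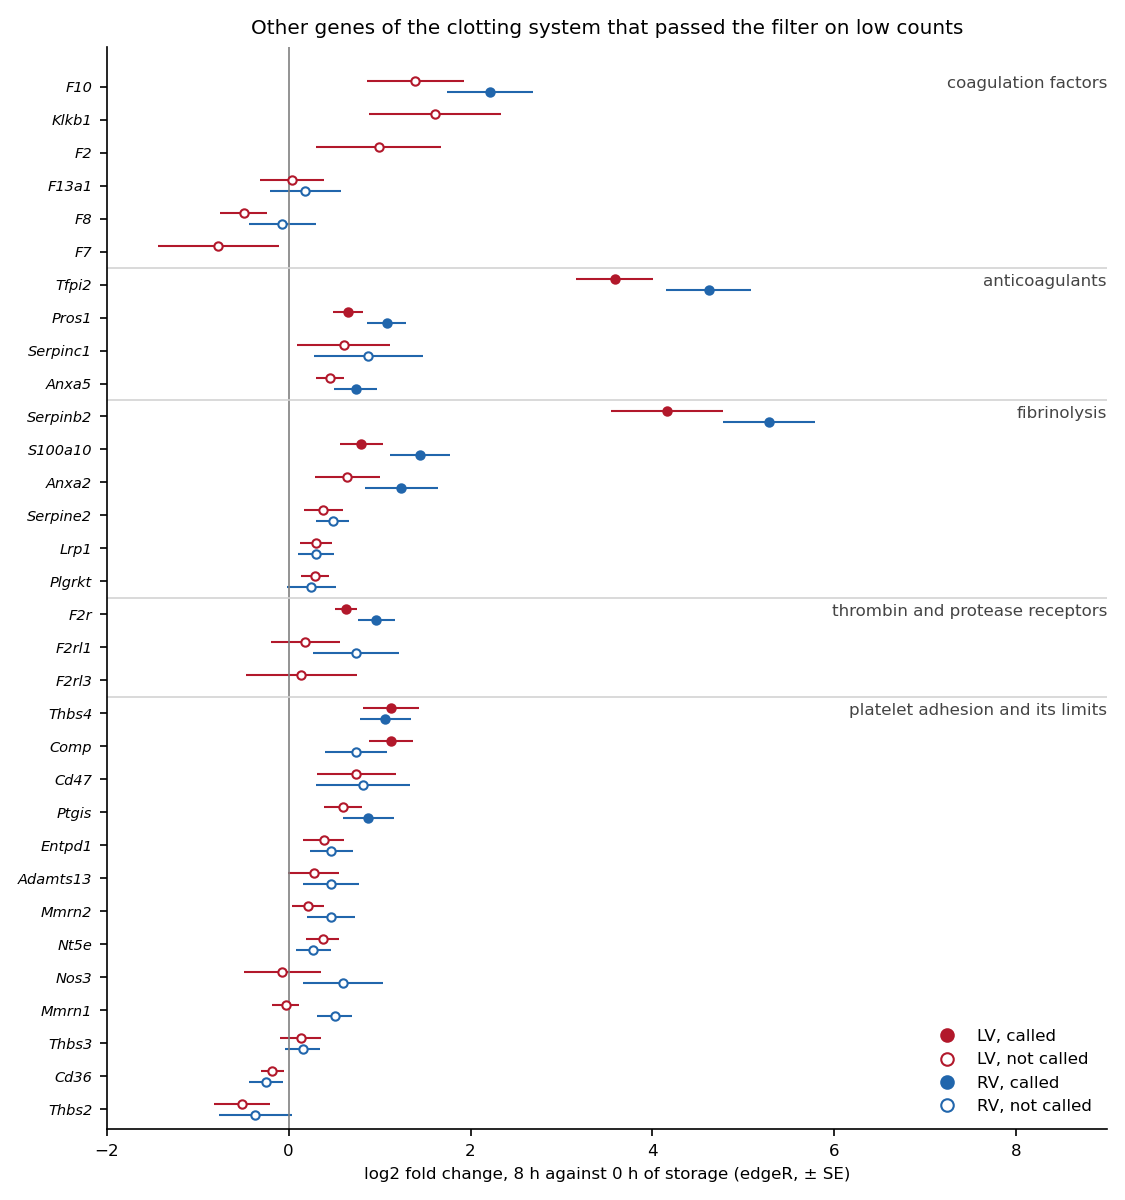
The log2 fold change after 8 h against 0 h (horizontal) of the other clotting-system genes that passed the filter, by role, with the SE of edgeR's fit as bars, LV in red and RV in blue, and filled symbols for called changes. Tfpi2 and Serpinb2 had the largest values in both ventricles, from 3.59 to 5.28.

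Serpinb2, which encodes PAI-2, an inhibitor of both plasminogen activators, rose from 0.09 ± 0.04 to 1.71 ± 0.48 CPM in LV and from 0.19 ± 0.10 to 7.56 ± 4.22 CPM in RV, with edgeR adjusted p of 0.0137 and 0.00106. S100a10 and Anxa2 encode the 2 partners of a cell-surface complex that binds Plat and plasminogen. S100a10 rose in both ventricles (0.80 ± 0.23 in LV and 1.45 ± 0.33 in RV), and Anxa2 was called in RV (1.24 ± 0.40) and not in LV (0.65 ± 0.36).

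Tfpi2, which encodes a protease inhibitor related to Tfpi, rose from 1.33 ± 0.56 to 16.2 ± 4.35 CPM in LV and from 1.05 ± 0.26 to 25.7 ± 11.01 CPM in RV after 8 h, with log2 fold changes of 3.59 ± 0.42 and 4.62 ± 0.46 and edgeR adjusted p of 0.00586 and 0.00107. Pros1, which encodes protein S, the cofactor of activated protein C, rose in both (0.65 ± 0.17 and 1.08 ± 0.21), as did F2r, the thrombin receptor PAR1 (0.63 ± 0.12 and 0.96 ± 0.21), and the thrombospondin Thbs4 (1.12 ± 0.31 and 1.06 ± 0.28). Comp, another thrombospondin, was called in LV (1.12 ± 0.24). In RV F10, which encodes factor X, was called at 2.21 ± 0.47 with a level of 0.93 to 3.11 CPM at 8 h, and Anxa5 (0.74 ± 0.23) and the prostacyclin synthase Ptgis (0.88 ± 0.28) were also called.

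Markers of cells that carry some of these transcripts were counted in the same fits. Of the 9 endothelial markers none was called after 8 h in either ventricle, with a median log2 fold change of 0.22 in LV and 0.31 in RV, and 1, Tek, was called lower in RV after 4 h. Of 6 platelet markers, which summed to 7.58 to 10.8 CPM in LV at 0 h, 10.3 to 20.2 CPM at 8 h, and 9.65 to 15.3 and 14 to 31.1 CPM in RV, Itga2b was called higher in RV after 8 h and none in LV. Of 6 macrophage markers Fcgr1 in LV and Fcgr1 and Adgre1 in RV were called higher after 8 h, with sums of 143.4 to 256.1 and 174.8 to 314.2 CPM in LV and 180.1 to 321.8 and 196.7 to 384.6 CPM in RV at 0 h and 8 h. The 5 neutrophil markers summed to at most 2.45 CPM at 0 h and reached 9.73 to 16.96 CPM at 8 h in LV and 11.96 to 16.4 CPM in RV, with Csf3r called higher in both, S100a8 and S100a9 also in LV (in RV they did not pass the filter and were not tested), and Ly6g at 0 in every group but LV at 8 h. The 4 haemoglobin genes summed to at most 6.14 CPM at 0 h and at 8 h to at most 194 CPM in LV and 52.0 CPM in RV, with Hbb-bs and Hbb-bt called higher in LV. Of 8 markers of smooth muscle and pericytes 3 in RV after 4 h and 2 after 8 h were called lower, of 6 cardiomyocyte markers Myh6 in LV after 8 h was, and of 6 fibroblast markers Tcf21 in RV after 8 h was called higher. None of 4 mesothelial and 3 atrial markers was called. With the block in RV, Cldn5 was called higher after 4 h and 8 h and Tek was not called, the mesothelial marker Wt1 was called higher after both times, as were Fcgr1 and 2 haemoglobin genes after 4 h, and all 4 haemoglobin genes, Cnn1, Tagln, and Col1a1 after 8 h. Between the ventricles no marker was called without the block. With the block of same-numbered pairs, Cldn5, Tcf21, Tagln, and Wt1 were called lower in LV at 8 h (6.53% of all genes). Hba-a2, Hbb-bs, and Hbb-bt were called higher, as were 2 of Csf3r, S100a8, and S100a9, with 1 lower. No cardiomyocyte, macrophage, platelet, or atrial marker was called. Acta2 was lower in LV at 0 h and Wt1 at 4 h. Cldn5 and Wt1 also had a higher log2 fold change in RV after 8 h. The part of these cells in the results was not tested.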

How the data were processed

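RNA of LV and RV was measured in 18 libraries, grouped by their labels. For each, the authors deposited estimated counts per transcript (expected counts), made with kallisto on GRCm38 transcripts and not normalized between libraries, and TPM values scaled within the library. Labels and methods give unlike mouse ages, HTK volumes, and library kits, none of which entered a calculation. Here 110203 of 111462 transcripts were matched to GENCODE M21 by identifier and summed to genes, and the others held 0.31% to 0.383% of the counts. Reads shared by related genes had been divided by kallisto.
Gene sums were rounded. After filterByExpr and TMM scaling, edgeR 4.0.16 (quasi-likelihood test) was run in R 4.3.3, with Benjamini-Hochberg adjustment over all genes. Storage times were compared in the 9 libraries of a ventricle, and ventricles and the difference in their changes in all 18. The SE is the log2 fold change divided by the square root of F. TPM served for levels between genes and was not tested. With 3 libraries a group, precision rests on the spread between libraries, and low genes such as Procr at 0 h have the fewest counts. P-values measure the spread between these libraries, which may be in part technical.
The replicate numbers come from the labels. Deviations of same-numbered libraries correlated at 0.325 or above between LV and RV, at 0.111 or above between times in RV, and at 0.358 or above between 4 h and 8 h in LV. Between 0 h and storage in LV the lowest was 0.04 at 4 h and -0.019 at 8 h, and there the numbers were not taken as pairs. Within a ventricle the block was the replicate number. Between the ventricles it was the same-numbered LV and RV pair of a storage time. The alternatives were DESeq2 1.42.0, RLE, length offsets, no filter on low counts, mitochondrial genes left out, the block, all 18 libraries in the fit, and each library left out. Coding transcripts only, a term for a Y-linked gene, and whole pairs left out were added after the data had been seen.
The genes named were the 9, other clotting genes called after 8 h, and the 3 genes most correlated with each of the 9. The genes and the lists were chosen with earlier results of these data known. Single cell type markers and factors at 0 were named after their values were seen. 1 listed gene is not reported here and was left out of the counts. The tests were checked on simulated data only for finding large built-in changes with the right sign. That check set no limit on false calls. Its fits with the block were given a shared effect of each pair, so it does not bear on error rates of the calls with the block. RefSeq promoter windows matched 4 of the 9 genes. Figures were drawn with matplotlib 3.10.9 in Python 3.11.15. Proteins and staining were not analysed here.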

Additional observations from a re-analysis of the deposited data

Results flagged for a closer look

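With each same-numbered LV and RV pair as a block, the change with storage differed between LV and RV in 6 of the 9 genes. This was by the test of the difference itself. Of all genes 0.265% were called this way for the change to 4 h and 4.72% for that to 8 h. The difference is given as log2, LV minus RV. For the change from 0 h to 4 h it was -1.13 for Plaur. For the change from 0 h to 8 h it was -1.67 for Thbs1, -1.47 for Procr, -1.46 for Plaur, -1.001 for Thbd, -0.78 for Plat, and -0.69 for Plau. The log2 fold change was higher in RV in each of these. When 1 same-numbered pair was left out, the call for the change to 4 h was kept for Plaur in 7 of 9 fits, and that for the change to 8 h in 2 of 9 for Plau, 8 of 9 for Procr, and all 9 for Plat, Plaur, Thbd, and Thbs1. In the fit without the block edgeR called 0 of the 9, with Plat and Thbs1 at an unadjusted p under 0.05 for the change to 8 h, and DESeq2 also called 0.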

How the results depend on the processing

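Of 747 recomputed values of single genes under another tool, scaling, filter, offset, term, selection of transcripts, or set of libraries in the fit, 738 kept their call or stayed uncalled within 1 SE, 7 gained a call, 1 lost it, and 1 stayed uncalled but moved by more. With the replicate block 109 of 144 values kept their call or stayed uncalled within 1 SE, and 35 gained a call. When 1 library was left out, 1206 of 1296 did so, 37 lost a call, 10 gained one, and 43 stayed uncalled but moved by more. When 1 pair was left out under the block, 132 of 405 gained a call against the fit without the block, and 273 stayed the same. None changed sign from a call. With DESeq2, 5 of the 9 genes were called in LV after 8 h (Vwf and Plaur in addition), 5 in RV after 4 h (Plau in addition), and 1, Vwf, in LV against RV at 4 h and at 8 h. For the fits in this paragraph, except the block on all transcripts between the ventricles, the share of all genes called is not given. Their counts are therefore not set against all genes. With length offsets 0 were called between the ventricles at 0 h. On coding transcripts alone, and with the term for the Y-linked gene, 1 (Vwf) was called at 8 h. With the replicate block, and likewise with the block on coding transcripts alone, the number of the 9 called between ventricles was 2 at 0 h, 2 at 4 h, and 6 at 8 h, and for the difference between ventricles in the change 1 at 4 h. For the change to 8 h it was 6 with the block and 5 on coding transcripts. In LV, where the numbers were not taken as pairs for 0 h and storage, the block gave 4 calls after 4 h (Plau in addition) and 4 after 8 h (Plaur in addition). It changed no other call of the 9 genes than those named here and in the report. When each library or same-numbered pair was left out, 0 to 4 of the 9 were called in LV after 4 h, 1 to 4 after 8 h, 1 to 5 in RV after 4 h, and 4 to 7 after 8 h. Between the ventricles these counts were 0 to 2 at 0 h, 0 to 2 at 4 h, and 0 to 6 at 8 h, and for the difference in change 0 to 2 (4 h) and 0 to 6 (8 h), where the higher counts came from fits with the block. The cause of these differences was not tested. Procr had the fewest counts of the 9 genes at 0 h, 1.02 to 4.94 CPM, so its level there is the least precise by counting error.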
